A study of Mus musculus with 12 samples.

Results

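Rbpj, Hes1 and 8 further genes that are known to respond to Notch signals in one cell type or another (Hes6, Dtx4, Myc, Ccnd1, Cdkn1a, Id1, Id2 and Id3) were followed in osteoclasts, the large bone-resorbing cells with many nuclei, grown from mouse bone marrow. The 10 genes were picked by name from 55414 gene IDs. Each name matched 1 ID, 9 of the 10 passed the filter on low counts with 13403 genes tested in all, and Hes1 did not pass it. Bone marrow macrophages of male mice aged 7 to 8 weeks were grown with M-CSF, a macrophage growth factor given at 30 ng/ml in the series' design. From day 3 they also received RANKL, the cytokine that drives osteoclast formation, for 4 days. There were 4 groups of 3 libraries, each labelled a biological replicate: wild type Hes1 loxP, Notch2 mutant Hes1 loxP, wild type Hes1 deletion and Notch2 mutant Hes1 deletion. Every control thus carries Hes1 alleles labelled loxP, meaning flanked by the sites that Cre recombinase cuts. The labels name neither the Notch2 mutation nor what deleted Hes1, and do not say whether animals were pooled, so p-values measure the spread between these libraries.

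When a ligand binds a Notch receptor such as NOTCH2, the receptor's intracellular part is cut free and enters the nucleus. There it joins RBPJ, a DNA-binding protein that represses its target genes until NOTCH and a Mastermind coactivator convert it into an activator. The best known direct targets are the HES and HEY repressors, among them Hes1, which recruit Groucho (TLE) corepressors. Myc, Ccnd1 and Cdkn1a link the pathway to cell growth and division, and ID proteins bind E proteins and keep them off DNA. In the osteoclast lineage, Notch receptors and RBPJ are known to modulate how macrophages respond to RANKL.

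The libraries held 13832368 to 19293772 counts assigned to genes. The 10 osteoclast markers examined, among them Acp5 and Ctsk, summed to 31219 to 50298 CPM (counts scaled to a common library total) in a library, and the 10 macrophage markers to 4437 to 4928 CPM. Markers of stromal and osteoblast cells, which the labels do not mention, summed to 352 to 404 CPM in the wild type loxP libraries, 216 to 328 in the Notch2 mutant loxP libraries, 428 to 482 in the wild type deletion libraries and 309 to 395 in the Notch2 mutant deletion libraries. Of the 15 genes on that list none was at 0, and Lum and Bglap were under 0.1 CPM. The 10 neutrophil markers summed to 256 to 335 CPM in wild type loxP and to 187 to 266 CPM in the other groups, and lymphocyte and endothelial markers to at most 15.7 and 7.79 CPM. Wild type deletion replicate 3 stood apart from its group: chi-square per gene between replicates ran from 2.40 to 8.41 over all groups, and its pairs gave the highest values (8.04 and 8.41). Notch2 mutant loxP replicates 2 and 3 were close behind with 7.78, so that group was not uniform either. For the 10 genes, many but not all of the values that wild type deletion replicate 3 enters are also given without it.

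Scaled to the length of the annotated exons, the 10 genes spread over a wide range of levels. Myc, a growth-promoting transcription factor, stood highest with 54.6 ± 4.83 CPM per kb (SD, n = 12 libraries), followed by Ccnd1, the D-type cyclin of the G1 phase, with 53.5 ± 4.88 CPM per kb. Dtx4, an E3 ubiquitin ligase of the Deltex family that acts on Notch receptors, came next with 48.0 ± 3.67 CPM per kb. Neighbours in this order overlapped in range for Myc and Ccnd1 and for Ccnd1 and Dtx4, whereas every library had Dtx4 above Cdkn1a, the p21 cell cycle inhibitor (25.3 ± 1.64 CPM per kb). The ID genes were unequal: Id3 held 20.3 ± 1.84, Id2 12.1 ± 0.855 and Id1 6.28 ± 1.48 CPM per kb. Rbpj, with 12.1 ± 0.864 CPM per kb, overlapped Id2, and its level is sensitive to annotation, since its exons add up to 12750 bp. Hes6, an HES family member known to oppose Hes1, held 7.67 ± 0.888 CPM per kb and overlapped Id1. Hes1 was lowest in all 12 libraries, with 0.0828 ± 0.0909 CPM per kb. The coefficient of variation over the 12 libraries was smallest for Cdkn1a (6.49%) among the 9 tested genes and largest for Id1 (23.7%), against a median of 8.54% over all tested genes.

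**Figure D1:**
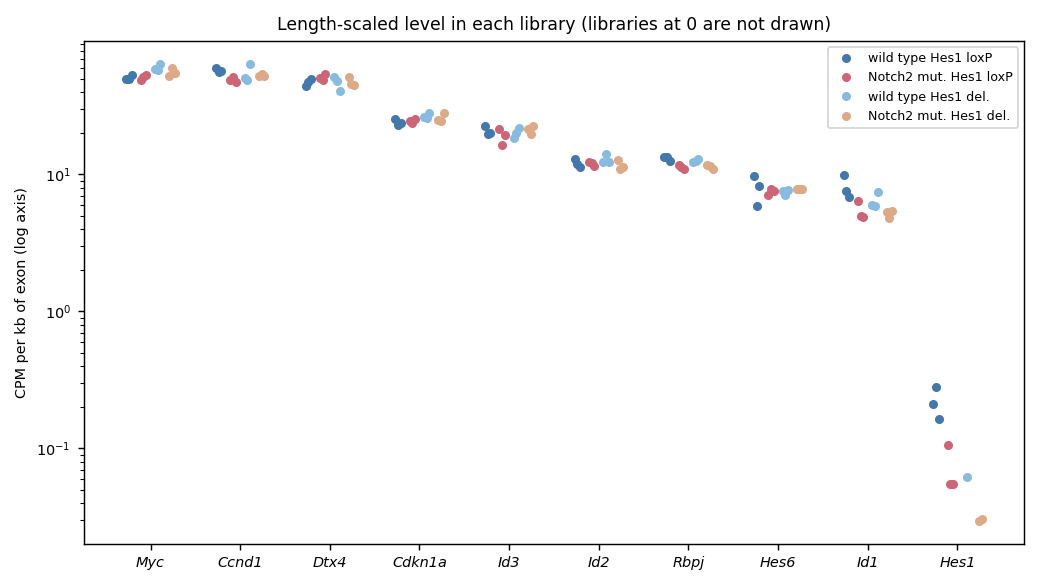
Level of each gene in CPM per kb of annotated exon (log axis), 1 point per library, coloured by genotype group, with genes in order of their mean. Myc, Ccnd1 and Dtx4 overlap near 50, while Hes1 lies far below Id1 in every library and 3 Hes1 libraries at 0 cannot be drawn.

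Rbpj, the DNA-binding partner of every Notch receptor, was lower in the Notch2 mutant libraries on both Hes1 backgrounds. Its level was 172, 171 and 159 CPM in the 3 wild type loxP libraries and 149, 145 and 140 CPM in the 3 Notch2 mutant loxP libraries. With Hes1 deleted it was 157, 159 and 165 CPM in wild type and 149, 147 and 140 CPM in the Notch2 mutant. All 6 mutant libraries (139.8, median 146, highest 149 CPM) lay below all 6 wild type libraries (157, median 162, highest 172 CPM). Averaged over the Hes1 states, Rbpj fell by 0.16 on the log2 scale (SE 0.0318, a fitted change of -10.3%), with an adjusted p of 0.0176 by edgeR's quasi-likelihood test with Benjamini-Hochberg adjustment. It was the 1 call among the 9 tested genes in this comparison, in which 1.89% of all tested genes passed (1.12% in the lower direction). For groups that do not overlap in the lower direction the share over all tested genes was 0.94%. An unadjusted edgeR p under 0.05 was found for 3 of the 9 genes and for 2180 of all 13403 tested genes.

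Taken one Hes1 state at a time, the Rbpj difference did not pass the threshold of 0.05. It was -0.18 ± 0.0449 (log2 fold change ± SE) with Hes1 loxP, adjusted p = 0.0625, and -0.13 ± 0.0450 with Hes1 deletion, adjusted p = 0.650. The difference between these differences was 0.05 (95% interval -0.08 to 0.19), adjusted p = 0.999, so no dependence on Hes1 was detectable. Deleting Hes1 gave Rbpj a log2 fold change of -0.05 (-0.12 to 0.01), adjusted p = 0.813, averaged over the genotypes.

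Without wild type deletion replicate 3 the averaged Rbpj difference was -0.16, adjusted p = 0.0271. The Rbpj call was lost, at the same direction, in 3 of 18 alternatives. Without wild type loxP replicate 2 the adjusted p was 0.0508, and without Notch2 mutant deletion replicate 3 it was 0.0722. With the mean of the stromal markers as a covariate the difference was -0.14, adjusted p = 0.230. That mean was lower in every Notch2 mutant library than in every wild type library of the same Hes1 state. Covariate and genotype are thus only partly separable. With Hes1 loxP the Rbpj difference was -0.165 (SE 0.0613) with the covariate and -0.18 (SE 0.0449) without it. Stromal markers were lower in the Notch2 mutant libraries, averaged over the Hes1 states, for 12 of 13 tested list members, of which 1 passed. Their median log2 fold change was -0.48 against 0.00105 for all tested genes. In deletion libraries the stromal markers were higher averaged over the genotypes (13 of 13, of which 0 passed, median 0.36). Osteoclast markers were higher in the Notch2 mutant, averaged, for 9 of 10 genes, of which 6 passed. Their sum had medians of 38927 and 47732 CPM in wild type and Notch2 mutant loxP, and 36913 and 39806 CPM with deletion. Macrophage markers were lower for 7 of 10, of which 4 passed. Their sum was not lower, with medians of 4764 and 4819 CPM with loxP and 4684 and 4866 CPM with deletion. The part of these cell types in the Rbpj difference was not tested. Fewer cells of a type and less RNA per cell cannot be told apart in these bulk samples.

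Rbpj lies at chr5:53466152-53657362 on the forward strand in GRCm38, and no other gene has exons that overlap its exons. Its processed pseudogenes Rbpj-ps1 and Rbpj-ps3 held 0 and 308 counts over all libraries, against 30776 for Rbpj. RefSeq's GRCm38.p6 table gives it 2 start sites, both well inside that interval. The 250 bases before the first, chr5:53590096-53590345, are shown because Rbpj is the gene that passed the test. Capitals mark the RBPJ core letters TGGGAA or, on the opposite strand, TTCCCA.

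Rbpj: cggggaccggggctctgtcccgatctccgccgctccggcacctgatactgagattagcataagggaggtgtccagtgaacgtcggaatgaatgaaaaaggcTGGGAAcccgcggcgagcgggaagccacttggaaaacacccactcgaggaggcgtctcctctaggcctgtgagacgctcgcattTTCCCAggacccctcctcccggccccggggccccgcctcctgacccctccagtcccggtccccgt

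The letters begin 149 and 65 bases before the start site. At least 1 match on either strand was found in 21.6% of 32851 promoter windows of the same length, and 2 or more in 2.77%. Promoter windows were at hand for 5 of the 10 genes (Rbpj, Hes6, Cdkn1a, Id2 and Id3). Of the others only the second Cdkn1a window held TGGGAA, and the second windows of Cdkn1a and Hes6 held the N box CACNAG, a class of site that HES repressors bind, which was in 36.7% of windows. No window of the 5 genes held CACGTG, the E box of MYC and MAX, found in 6.02% of windows. The second Cdkn1a window, chr17:29093519-29093768 on the forward strand, holds both kinds of letters and belongs to a gene with no call. Capitals there mark CACNAG read on the opposite strand (CTGGTG) and TTCCCA.

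Cdkn1a: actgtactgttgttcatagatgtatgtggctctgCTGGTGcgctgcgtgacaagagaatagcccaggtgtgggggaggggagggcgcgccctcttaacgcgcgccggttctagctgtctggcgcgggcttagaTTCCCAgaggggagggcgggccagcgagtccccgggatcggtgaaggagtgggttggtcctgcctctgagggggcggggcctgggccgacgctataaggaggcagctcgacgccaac

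Hes1, at chr16:30064384-30067796, was nearly silent in these osteoclasts, so it is described by raw counts. The wild type loxP libraries held 6, 11 and 6 counts, the Notch2 mutant loxP libraries 3, 2 and 2, the wild type deletion libraries 0, 0 and 2, and the Notch2 mutant deletion libraries 0, 1 and 1. The deletion groups therefore held 4 counts against 30 in the loxP groups. Per assigned count the ratio was 0.136, with a 95% exact binomial interval of 0.0348 to 0.386 that covers counting error only. The exact two-sided permutation test over the 12 libraries gave p = 0.00649, and the smallest value it can give is 0.00216. The deletion labels were thus matched by the Hes1 counts as a whole, although 1 wild type deletion library held as many counts as 2 of the loxP libraries of the Notch2 mutant. That library is the replicate 3 that stood apart, and without it the ratio was 0.0811 (0.00940 to 0.320), exact permutation p = 0.0108.

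Hes1 counts were not higher in the Notch2 mutant. On the loxP background the ratio of Notch2 mutant to wild type was 0.314 (0.114 to 0.757), and every mutant library was below every wild type library. The exact permutation test of 3 against 3 libraries gave p = 0.10, the smallest it can reach. Over both Hes1 states the ratio was 0.382 (0.157 to 0.845), exact permutation p = 0.167. Without wild type deletion replicate 3 it was 0.350 (0.143 to 0.786), exact permutation p = 0.149. These permutations did not hold the Hes1 state fixed, so their spread includes the difference between deletion and loxP libraries. Those for the deletion over both genotypes likewise did not hold the genotype fixed. With Hes1 deleted, 2 counts stood against 2, for a ratio of 1.09 (0.0789 to 15.02). A count of 0 in all 3 libraries of a group would still have allowed up to 0.0583 to 0.0635 CPM (3 counts), so a level under this may leave no count.

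Most of the other listed Notch targets were also scarce. Of 16 listed targets outside the 10 genes, 12 failed the filter on low counts, Hes3 and Ptcra had no count in any library, and the most abundant of the 12, Notch3, had 65 counts over all 12 libraries. Hes5 had 7 counts in wild type loxP, 6 in Notch2 mutant loxP, 7 in wild type deletion and 6 in Notch2 mutant deletion. Hey1 and Heyl, both HEY family repressors, had more counts in the Notch2 mutant, and are singled out here after their values were seen. Heyl had 1, 0 and 2 counts in the wild type loxP libraries, 7, 3 and 9 in the Notch2 mutant loxP libraries, 2, 3 and 5 in the wild type deletion libraries, and 9, 4 and 1 in the Notch2 mutant deletion libraries. This gave 33 counts in the mutant against 13 in wild type, a ratio of 2.69 (1.38 to 5.57, exact binomial). Hey1 had 20 against 7 counts, a ratio of 3.03 (1.23 to 8.48). The Heyl groups did not overlap with Hes1 loxP, and the Hey1 groups did not with Hes1 deletion (1, 2 and 1 counts in wild type against 7, 3 and 3). The other 2 pairs of groups, and the 6 against 6 libraries of either gene, overlapped, and no test was made of these counts.

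**Figure D2:**
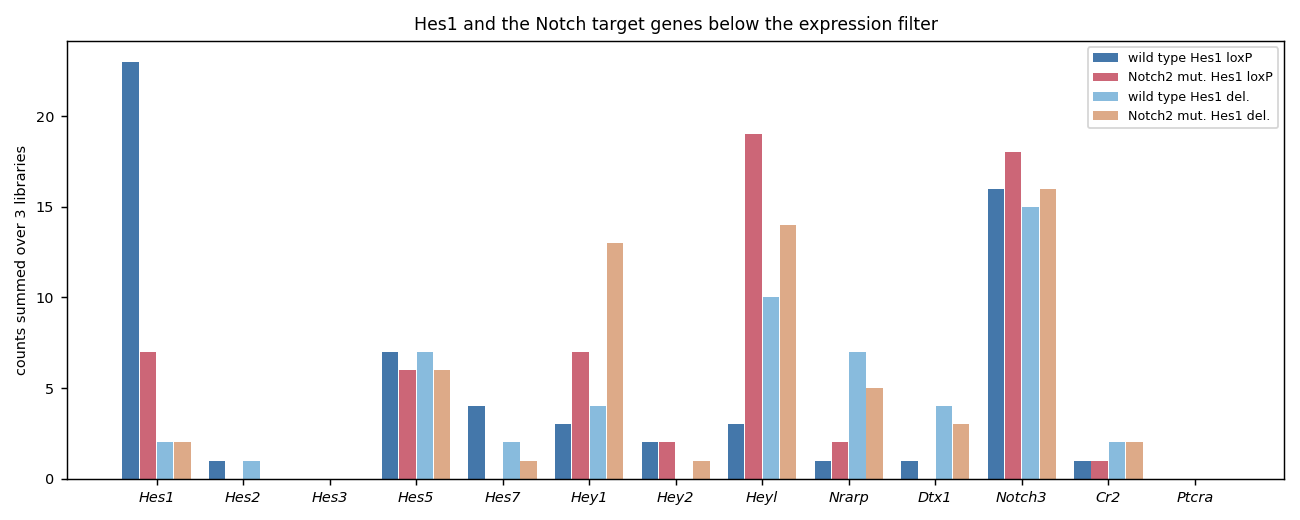
Raw counts summed over the 3 libraries of each group (linear axis from 0) for Hes1 and the 12 listed Notch targets below the expression filter. Hes1 stands at 23 counts in wild type loxP against 2 in each deletion group, and Heyl stands at 3 in wild type loxP against 19 in Notch2 mutant loxP.

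The 4 listed targets that could be tested were Dtx2, Dtx3, Lfng and Efnb2. All 4 had positive log2 fold changes in the Notch2 mutant averaged over the Hes1 states (0.03 to 0.22), and none passed in any of the 7 comparisons. In that averaged comparison 3 of the 4 had an unadjusted edgeR p under 0.05, as had 2180 of all 13403 tested genes. With Hes1 deleted 2 of the 4 did (6.69% of all tested genes), and with Hes1 loxP 0 did (14.2%). Lfng, a glycosyltransferase that modifies Notch receptors, was at 175 ± 7.17 CPM in wild type loxP and 180 ± 3.86 CPM in Notch2 mutant loxP (SD, n = 3). Dtx3, a Deltex relative, was at 9.99 ± 1.01 and 11.6 ± 0.957 CPM, a log2 fold change of 0.25 with an adjusted p of 0.375.

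Hes6 and Dtx4 were expressed in every library and did not pass the test in any comparison. Hes6 (chr1:91411483-91414038) was at 17.6, 10.6 and 14.96 CPM in the wild type loxP libraries, whose range enclosed all the others. It was at 12.8, 14.1 and 13.7 CPM in Notch2 mutant loxP, 13.7, 12.7 and 13.9 in wild type deletion and 14.1, 14.1 and 14.1 in Notch2 mutant deletion. The fitted Hes6 difference of the Notch2 mutant, averaged over the Hes1 states, was 0.02 with a 95% interval of -0.17 to 0.21, and 0.02 again without wild type deletion replicate 3. Dtx4 (chr19:12466338-12501454) was at 229, 245 and 260 CPM in wild type loxP and 265, 256 and 281 CPM in Notch2 mutant loxP, and these groups overlapped. It was at 268, 253 and 213 CPM in wild type deletion and 267, 238 and 235 CPM in Notch2 mutant deletion. Its log2 fold change in the Notch2 mutant was 0.15 ± 0.0772 with Hes1 loxP, adjusted p = 0.397, and 0.02 with Hes1 deletion. Without wild type deletion replicate 3, the library at 213 CPM, the latter was -0.08.

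**Figure D3:**
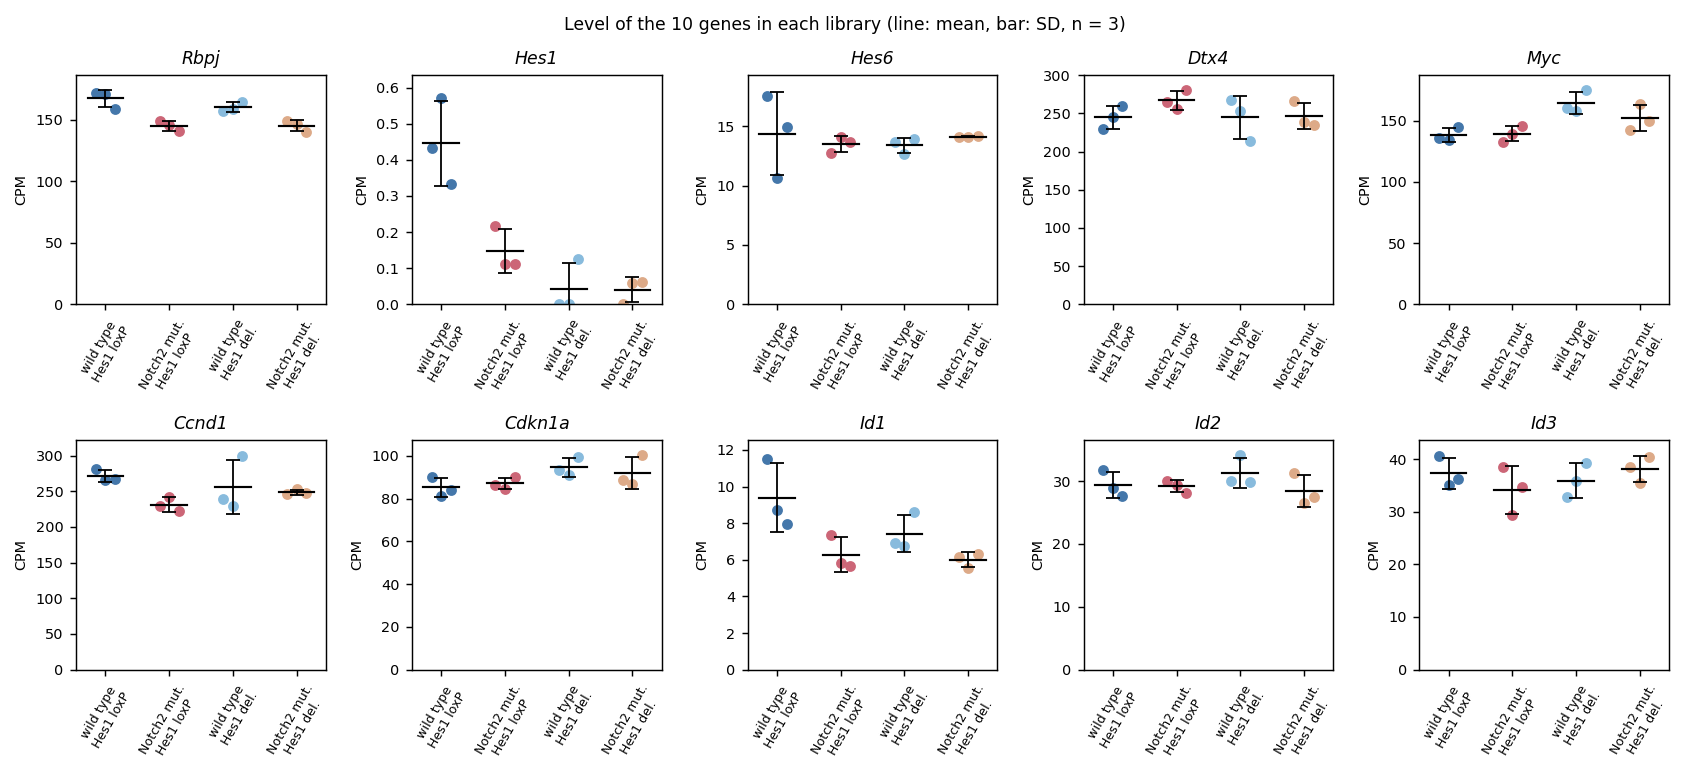
CPM of the 10 genes in each library (axes from 0, each gene on its own scale), with the mean as a line and the SD as a bar (n = 3). For Rbpj all Notch2 mutant points lie under 150 and all wild type points above 157, while Hes1 stays under 0.6 throughout.

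Among the ID genes Id1 had the largest differences, and none of the 3 passed the test. Id1 (chr2:152736251-152737410), an inhibitor of E proteins and a well known target of BMP signals, was at 11.5, 8.71 and 7.95 CPM in wild type loxP and 7.37, 5.81 and 5.68 CPM in Notch2 mutant loxP, with no overlap. With Hes1 deleted it was at 6.94, 6.76 and 8.59 CPM in wild type and 6.18, 5.54 and 6.29 CPM in the Notch2 mutant, again with no overlap, a pattern that 7.48% of all tested genes showed in the lower direction there. Across both Hes1 states the 6 against 6 libraries did overlap. The log2 fold change of the Notch2 mutant was -0.55 ± 0.154 with Hes1 loxP, adjusted p = 0.0956, and -0.42 ± 0.111 averaged over the Hes1 states, adjusted p = 0.0546. Neither passed, although Id1 had the largest fitted differences of the 9 genes in both comparisons.

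The averaged Id1 difference passed in 5 of 18 alternatives, with adjusted p from 0.00271 to 0.297 over all of them. These 5 were DESeq2 (0.0371), no filter on low counts (0.00271), the replicate number as a block (0.0466), and leaving out wild type loxP replicate 3 (0.0366) or Notch2 mutant loxP replicate 1 (0.0418). With the stromal markers as a covariate, which separated the genotypes within each Hes1 state, it was -0.42, adjusted p = 0.297. The part of stromal cells in it was not tested further. Without wild type deletion replicate 3 it was -0.38, adjusted p = 0.119. With Hes1 deleted the Notch2 difference of Id1 moved from -0.29 (adjusted p = 0.795) to -0.19 without that library. Id1 in deletion against loxP libraries had a log2 fold change of -0.35 ± 0.150 in wild type, adjusted p = 0.809, and -0.09 ± 0.163 in the Notch2 mutant. Without that library the value in wild type was -0.45, adjusted p = 0.386.

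Id2 and Id3 passed in no comparison, and their averaged Notch2 differences were near 0. Id2 (chr12:25093799-25097140) was at 31.7, 28.9 and 27.7 CPM in wild type loxP, 30.1, 29.4 and 28.2 in Notch2 mutant loxP, 30.0, 34.1 and 29.8 in wild type deletion and 31.3, 26.5 and 27.5 in Notch2 mutant deletion, and all 4 groups overlapped. Its averaged difference in the Notch2 mutant was -0.06 (-0.18 to 0.06), made up of 0.01 with Hes1 loxP and -0.13 with Hes1 deletion, which differed by -0.14 (95% interval -0.38 to 0.10). Id3 (chr4:136143497-136145755) was at 40.6, 35.0 and 36.2 CPM in wild type loxP, 38.5, 29.4 and 34.6 in Notch2 mutant loxP, 32.7, 35.7 and 39.2 in wild type deletion and 38.5, 35.4 and 40.4 in Notch2 mutant deletion. Its averaged difference was -0.00124 (-0.14 to 0.14), made up of -0.10 with Hes1 loxP and 0.10 with Hes1 deletion, of opposite sign, which differed by 0.20 (95% interval -0.08 to 0.48). In fold terms these intervals ran from 0.885 to 1.04 for Id2 and from 0.908 to 1.10 for Id3. Without wild type deletion replicate 3 the averaged differences were -0.08 for Id2 and 0.02 for Id3.

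Ccnd1 (chr7:144929931-144939925) was at 282, 265 and 267 CPM in wild type loxP and 230.1, 242 and 222 CPM in Notch2 mutant loxP, with no overlap. Rbpj and Id1 were the other 2 of the 9 tested genes with this pattern, which 11.1% of all tested genes showed in the lower direction. With Hes1 deleted Ccnd1 was at 239.8, 229 and 299.9 CPM in wild type and 246, 253 and 248 CPM in the Notch2 mutant, and the mutant libraries lay inside the wild type range. Its log2 fold change in the Notch2 mutant was -0.21 ± 0.0679 with Hes1 loxP, adjusted p = 0.167, and -0.03 ± 0.0679 with Hes1 deletion. None of the 9 genes passed with edgeR in the loxP comparison, where 0.776% of all tested genes did, 3 had an unadjusted p under 0.05 (14.2% of all tested genes), and DESeq2 called Rbpj alone (adjusted p = 0.0180).

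Wild type deletion replicate 3, at 299.9 CPM, moved every Ccnd1 value that it enters. Without it the loxP comparison, to which that library does not belong, gave -0.21 with an adjusted p of 0.0142. Deletion against loxP in wild type moved from -0.10 to -0.22, adjusted p = 0.0694. The difference of the Notch2 effect between Hes1 states moved from 0.18 to 0.30, adjusted p = 0.117, and the Notch2 difference with Hes1 deletion from -0.03 to 0.09, adjusted p = 0.808. The difference between Hes1 states was not past the threshold with or without this library. Exons of Ccnd1 share 1100 bp with LTO1 on the opposite strand, which had 3235 counts over all libraries against 50162 for Ccnd1, and the sources used here do not give whether reads were counted by strand.

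Myc and Cdkn1a were both higher in wild type deletion than in wild type loxP libraries with no overlap, and neither passed the test. Myc (chr15:61985391-61990374) was at 136, 134 and 145 CPM in wild type loxP and 160.4, 158 and 175 CPM in wild type deletion. In the Notch2 mutant it was at 133, 139 and 145 CPM with Hes1 loxP and 143, 163 and 149.5 CPM with Hes1 deletion, and these overlapped. The log2 fold change of the deletion was 0.23 ± 0.0555 in wild type, adjusted p = 0.382, and 0.16 ± 0.0394 averaged over the genotypes, adjusted p = 0.242. Without wild type deletion replicate 3, the library at 175 CPM, these were 0.19 (adjusted p = 0.266) and 0.14 (adjusted p = 0.255).

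Cdkn1a (chr17:29090976-29100727) was at 90.2, 81.4 and 84.2 CPM in wild type loxP and 93.2, 91.2 and 99.6 CPM in wild type deletion. In the Notch2 mutant it was at 86.6, 84.6 and 90.1 CPM with Hes1 loxP and 88.9, 86.8 and 100.5 CPM with Hes1 deletion. Its averaged log2 fold change of the deletion was 0.09 ± 0.0429, adjusted p = 0.714, and 0.08, adjusted p = 0.739, without wild type deletion replicate 3. In wild type, 2 of the 9 genes were higher without overlap, as were 7.28% of all tested genes. In the Notch2 mutant Hes6 and Ccnd1 were the 2 that did so, at log2 fold changes of 0.03 and 0.07, against 8.1% of all tested genes. None of the 9 genes was called by edgeR or DESeq2 in either deletion comparison or in their average. At an unadjusted p under 0.05 there were 3 in wild type, 0 in the Notch2 mutant and 2 in the average, against 5.93%, 4.76% and 6.89% of all tested genes. Over all tested genes 0.0373%, 0.0373% and 0.0821% passed.

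**Figure D4:**
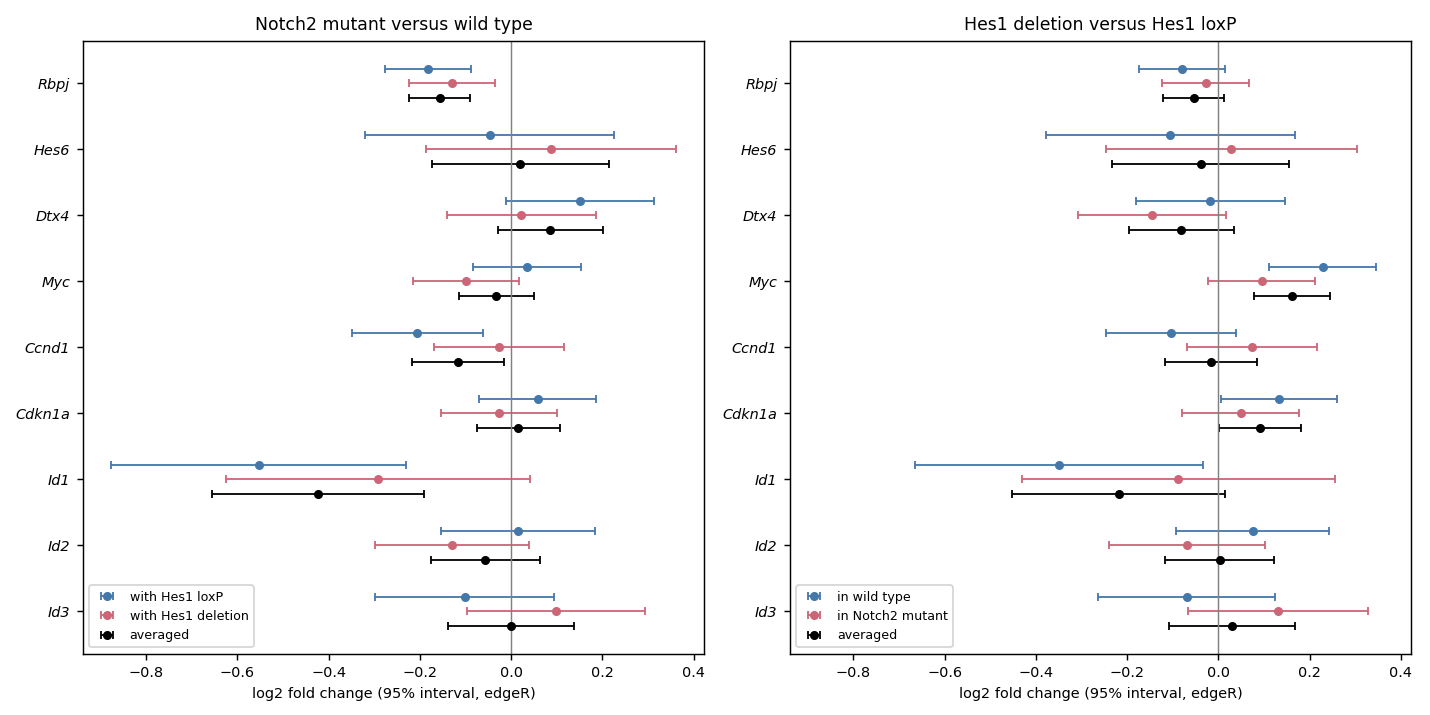
Log2 fold change with its 95% interval (edgeR, 12 libraries in 1 fit) for the 9 tested genes, for the Notch2 mutant against wild type (left) and Hes1 deletion against Hes1 loxP (right), within each background and averaged. The averaged Rbpj value of -0.16 in the left panel is the 1 that passed after adjustment, and Id1 has the widest intervals.

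For the difference of the Notch2 effect between the Hes1 states, 0 of 13403 genes passed with edgeR (0% of those tested), 506 (3.78%) had an unadjusted p under 0.05, and DESeq2 called 0. The values of the 9 genes ran from -0.14 for Id2 to 0.26 for Id1, with adjusted p of 0.999 for each. Without wild type deletion replicate 3, 12 genes were called. In the Notch2 comparison with Hes1 deleted, 2 genes passed (0.0149%), none of them among the 9. Rbpj was the 1 of the 9 with an unadjusted p under 0.05 there (6.69% of all tested genes), and DESeq2 called none.

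Most partners of RBPJ were expressed, and none passed the test with the filter on low counts. Of 19 listed genes of the activating and repressing complexes, 18 could be tested in the 7 comparisons. Their median log2 fold change in the Notch2 mutant, averaged, was -0.04, with 13 of 18 negative. Maml3, a Mastermind coactivator, was at 15.4 ± 1.37 CPM in wild type loxP and 18.0 ± 2.42 CPM in Notch2 mutant loxP (log2 fold change 0.25, adjusted p = 0.308, and 0.14 without Notch2 mutant loxP replicate 2). Snw1, a cofactor also known as SKIP, had a log2 fold change of 0.10 in deletion libraries, adjusted p = 0.494, and Fhl1 of 0.67, adjusted p = 0.659, at under 1 CPM in each group mean. Of the 5 Groucho family genes, 0 passed with edgeR in any comparison with the filter. Tle3 was at 28.8 ± 3.05 CPM in wild type loxP and 23.4 ± 3.17 in Notch2 mutant loxP, adjusted p = 0.218, and with no filter it was called (log2 fold change -0.28, adjusted p = 0.0496).

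Among 8 genes of Notch receptor turnover, Nedd4, an E3 ubiquitin ligase, was the 1 that passed. With the filter it was also the 1 called gene of the 9 pathway lists examined. It was at 7.93, 6.53 and 6.73 CPM in wild type loxP, 3.25, 3.13 and 4.11 in Notch2 mutant loxP, 9.14, 8.69 and 7.14 in wild type deletion and 6.38, 4.39 and 4.24 in Notch2 mutant deletion. All 6 mutant libraries lay below all 6 wild type libraries. Nedd4 fell by 0.98 on the log2 scale with Hes1 loxP (SE 0.182, adjusted p = 0.0160) and by 0.85 averaged over the Hes1 states (SE 0.125, adjusted p = 0.00258), or by 0.91 without wild type deletion replicate 3 (adjusted p = 0.00149). The stromal marker sum ranked the 4 groups in the same order by its medians (470, 382, 334 and 295 CPM from wild type deletion to Notch2 mutant loxP). With the stromal markers as a covariate the averaged value was -0.66, adjusted p = 0.167, and that with Hes1 loxP -0.76, adjusted p = 0.209. This covariate separated the genotypes within each Hes1 state, and the part of stromal cells in the Nedd4 difference was not tested further. The loxP call was also lost without wild type loxP replicate 1 (adjusted p = 0.0763) or Notch2 mutant loxP replicate 2 (0.0691). Numb, an inhibitor of Notch, had a log2 fold change of -0.11 in deletion libraries, adjusted p = 0.429, and Cbl one of -0.20 in the Notch2 mutant with Hes1 loxP, adjusted p = 0.214. Cbl was called with no filter (-0.20, adjusted p = 0.0132), and was at -0.10 without Notch2 mutant loxP replicate 3.

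**Figure D5:**
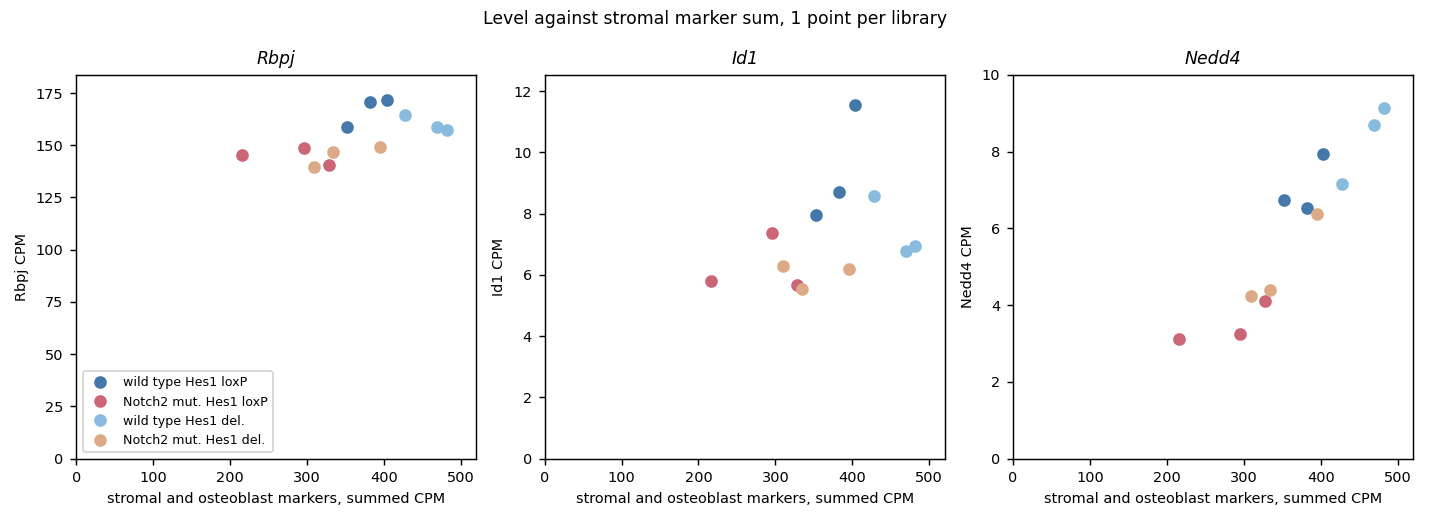
CPM of Rbpj, Id1 and Nedd4 (axes from 0) against the summed CPM of 15 stromal and osteoblast markers, 1 point per library, coloured by group. Notch2 mutant loxP libraries lie at the left (216 to 328) and wild type deletion libraries at the right (428 to 482).

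The partners and neighbours of the ID, Myc and cell cycle genes gave no call in any comparison with the filter on low counts. Of the E proteins that ID proteins bind, Tcf4 was at 39.5 ± 3.75 CPM in wild type loxP and 33.3 ± 3.59 in Notch2 mutant loxP (log2 fold change -0.22, adjusted p = 0.225), and Tcf12 at 121 ± 2.67 and 128 ± 4.67 CPM (0.10, adjusted p = 0.321). Of 10 tested genes of BMP signalling (receptors, SMADs, Bambi and Bmp2), 6 were negative in the averaged Notch2 comparison with a median of -0.02. Smad6, a BMP-induced inhibitor, was at -0.25 with Hes1 loxP, adjusted p = 0.607. Leaving out 1 library moved that Smad6 value between -0.44 (without Notch2 mutant loxP replicate 1) and -0.085 (without Notch2 mutant loxP replicate 3). Smad1, which carries BMP signals to the nucleus, was at -0.16 in deletion libraries, adjusted p = 0.571.

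In the Myc network 10 of 11 genes were tested. Mxd4 and Mxi1, which compete with MYC for MAX, had log2 fold changes of 0.32 (adjusted p = 0.202) and 0.20 (adjusted p = 0.301) in the Notch2 mutant with Hes1 loxP. With no filter Mxd4 was called (0.32, adjusted p = 0.000703). Of 14 G1 genes, 11 were negative in the averaged Notch2 comparison, with a median of -0.10 against 0.00105 for all tested genes. E2f1, a factor for S phase entry, was at 54.9 ± 3.29 CPM in wild type loxP and 47.9 ± 3.74 in Notch2 mutant loxP, adjusted p = 0.287, whereas Cdkn1c, the p57 inhibitor, was at 1.43 ± 0.302 and 2.24 ± 0.288 CPM, adjusted p = 0.278. Of 14 listed genes of the p53 pathway (Trp53 and targets of p53), the pathway for which Cdkn1a is best known, 9 were positive with a median of 0.07. Trp53inp1 was at 0.39 with Hes1 loxP, adjusted p = 0.266 (called with no filter at 0.38, adjusted p = 0.000587), and Ccng1 at 0.14, adjusted p = 0.287. Btg2 and Phlda3 were at 0.21 and 0.18 in deletion libraries, with adjusted p of 0.693 and 0.752.

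The genes whose log2 CPM followed each gene most closely over the 12 libraries, among 11135 genes compared, are given as a description, since the libraries share genotype groups. For Rbpj they were Cyfip1, Lhfpl2 and Trf, with Pearson's r of 0.954, 0.942 and 0.933. For Id1 they were Tlr7, Nrp1 and Lrrk2, with r of 0.984, 0.960 and 0.951. Ccnd1 was followed most closely by Ccl2 (r = 0.9496) and Myc by Spout1 (0.936), with Fos also near for Myc (0.904). Dtx4 was most like Dap (0.925), Id3 like Itgal (0.901), Id2 like Efna1 (0.862) and Hes6 like Cdipt (0.853). Cdkn1a had the lowest leading value, 0.813 for Txnl4b. No gene on these lists was among the 10.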

How the data were processed

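Libraries were made with a stranded mRNA kit and sequenced as 75 bp read pairs in 1 pool, per the labels' protocols. The deposited files hold raw counts per Ensembl gene made by the authors. HISAT2, SAMtools, Picard, HTSeq, DESeq2 and GRCm38 are named in the submitters' processing notes, and the sources used here give no version, annotation or strand setting. Symbols came from GENCODE M21 (52133 of 55414 IDs named). The 5 summary rows, 15.8% to 19.0% of each file, were left out. CPM are scaled to the assigned counts, whose total was 13832368 to 19293772.

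The test was edgeR 4.0.16 (R 4.3.3): TMM, filterByExpr (minimum count 10, total 15), 1 quasi-likelihood fit of all 12 libraries with a mean per group, 7 contrasts and Benjamini-Hochberg adjustment at 0.05. Hes1 was compared as summed counts with exact binomial intervals (95%) and exact permutation tests (scipy 1.17.1). The fit was first tested on simulated data. Alternatives changed the tool (DESeq2 1.42.0), the scaling (RLE), the filter (none, or 50 counts on average), or the libraries fitted (those compared, or all but 1), or added a replicate block or a stromal covariate. The genes and lists were chosen with earlier results of these data known. The rule for named genes took the 10 genes, list genes that were called or had the smallest p in the Notch2 loxP or averaged deletion comparison, and the 3 genes most correlated with each gene (mean log2 CPM of at least 1). The text prints the 3 most correlated genes for Rbpj and Id1 and fewer for the others, and a gene that this rule names is not reported here.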

Additional observations from a re-analysis of the deposited data

How the results depend on the processing

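Calls depended most on the filter, the stromal covariate, the tool and single libraries, and the cause was not tested. The stromal covariate separated the Notch2 genotypes within each Hes1 state, so covariate and genotype are only partly separable. The number of the 9 genes called in the Notch2 comparison with Hes1 loxP went from 0 to 3 with no filter and 1 with DESeq2 (0 to 2 with 1 library left out). In the averaged Notch2 comparison it went from 1 to 3 with no filter, 0 with the stromal covariate and 2 with DESeq2 (0 to 2 with 1 library left out). With no filter 1 gene, Myc, was called in the deletion comparison in wild type and 1, Myc again, in the averaged one. Over all tested genes, the Notch2 loxP count went from 104 to 657 with no filter, 2 with the covariate and 242 with DESeq2 (27 to 290 with 1 library left out, lowest without wild type loxP replicate 1 and highest without wild type deletion replicate 3). The averaged Notch2 count went from 253 to 853, 1 and 420 in the same order (61 to 323, lowest without Notch2 mutant deletion replicate 3). With Hes1 deleted the Notch2 count of 2 went to 138 with no filter, 1 with the stricter filter (50 counts on average) and 0 with the covariate (0 to 5 by library). The deletion count in wild type went from 5 to 135 with no filter and 2 with the stricter one (3 to 26), that in the Notch2 mutant from 5 to 110, 2 and, with the covariate, 3 (3 to 6), and the averaged one from 11 to 184, 6, 3 and, with DESeq2, 20 (6 to 16). The interaction count went from 0 to 63 with no filter (0 to 12).

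The labels do not state that replicate numbers mark shared animals or days, and the libraries were not treated as paired. Deviations of same-numbered libraries correlated from -0.0897 to 0.107, with 1 of 18 pairs over 0.1. Those of different-numbered libraries from different groups correlated from -0.0998 to 0.121, a wider range. Of the 12 libraries, 8 correlated best with their own number. Values this low cannot settle whether same-numbered libraries shared a day or an animal. With the replicate block 2 of the 9 genes were called in the averaged Notch2 comparison, Id1 besides Rbpj. Over all tested genes the count there was 325 with the block and 253 without it. In the Notch2 comparison with Hes1 loxP it was 148 with the block and 104 without it.

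Of 1851 alternative values for single genes, 1778 kept direction and side of the threshold and 45 changed sign, all of genes whose 12-library values lay between -0.11 and 0.13. With the stromal covariate, Id3 was 0.032 in the Notch2 loxP comparison and 0.12 in the averaged one, where Hes6 was -0.076. In the averaged deletion comparison it gave 0.035 for Hes6, 0.022 for Ccnd1, -0.011 for Id2, -0.061 for Id3, -0.011 for Tcf3 and -0.078 for Tle1, and no filter gave -0.0019 for Id2. With 1 library left out, the Notch2 loxP values ran from -0.23 to 0.11 for Hes6, -0.0093 to 0.065 for Myc, -0.031 to 0.064 for Id2 and -0.19 to 0.0011 for Id3. Those with Hes1 deleted ran from -0.077 to 0.099 for Dtx4, -0.10 to 0.088 for Ccnd1 and -0.098 to 0.021 for Cdkn1a, and the Hes1 ratio from 0.704 to 1.57 (none can be had without wild type deletion replicate 3, which held that group's 2 counts). Averaged, they ran from -0.072 to 0.098 for Hes6, -0.022 to 0.038 for Cdkn1a and -0.047 to 0.050 for Id3. The deletion values ran in wild type from -0.29 to 0.050 for Hes6 and -0.094 to 0.078 for Dtx4, and in the Notch2 mutant from -0.0052 to 0.052 for Hes6, -0.021 to 0.099 for Cdkn1a and -0.14 to 0.034 for Id1. Averaged, they ran from -0.13 to 0.039 for Hes6, -0.073 to 0.021 for Ccnd1, -0.034 to 0.032 for Id2, -0.022 to 0.075 for Id3, -0.00097 to 0.049 for Tcf3 and -0.0072 to 0.099 for Tle1. The Hes6 interaction ran from -0.022 to 0.32. Depth limits Hes1 and the other scarce targets most.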
